A study of Arabidopsis thaliana with 9 samples.

Results

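The strictosidine synthase-like genes of Arabidopsis thaliana were followed across seedlings of 3 genotypes. A list of 10 loci of the family was drawn up by locus, and the members were those with a probe set of their own in the platform's probe-to-gene annotation. That left 5 of 10 loci: AT3G57010, AT3G57020 and AT3G57030, which lie side by side on chromosome 3, and AT3G51440 and AT3G51450 of a second tandem cluster on the same chromosome. The neighbours of that second pair, SSL4 (AT3G51420) and YLS2 (AT3G51430), and the single loci SSL3 (AT1G08470), AT5G22020 and LAP3 (AT3G59530) were not analysed here. Among the 9190 genes with a probe set of their own in the series, 5 thus belonged to the family. The family was selected on a measured value, the level of AT3G57020 in cct-1 against wild type, which was among the larger increases. Values of all members in that comparison, and values of AT3G57020 in any comparison, are therefore given as a description without a test. Counts of called members that rest on them are printed beside the background, and nothing is read from them.

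Strictosidine synthase joins tryptamine and secologanin in alkaloid-making plants such as Catharanthus roseus, the entry step of the monoterpenoid indole alkaloids. Arabidopsis is not known to make these alkaloids, and its strictosidine synthase-like proteins share the six-bladed beta-propeller fold of the enzyme rather than a proven alkaloid function. Several of the Arabidopsis genes are known from other work to respond to pathogens, wounding or defence hormones, YLS2 was found in yellowing leaves, and LAP3 acts in the making of the pollen wall.

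The seedlings were cct-1 mutants at 9 days, gct-2 mutants at 9 days, and wild-type Col-0 at 7 days, all in the Col-0 background and with 3 arrays each. CCT and GCT encode MED12 and MED13 of the Mediator CDK8 module, which can leave the rest of Mediator, the bridge between transcription factors and RNA polymerase. One allele stood for each gene, each array held RNA of above-ground parts pooled from 75 to 100 soil-grown seedlings, and per the labels seedlings without cotyledons or leaf primordia were not used. Harvest was set by stage, so mutation and 2 days of age cannot be told apart in a comparison with wild type, whereas the mutants were compared at equal age.

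Values are probe set levels on a log2 scale, on which a difference of 1 is a doubling. Array medians lay between 7.70 and 7.76. A probe set was tested when it exceeded the 40th percentile of its array, 6.83 to 6.87, on at least 3 arrays. This held for 10395 of the 16863 probe sets, 3 of them members. None of the 11 listed green shoot genes, 6 root genes or 8 pollen wall and tapetum genes had a probe set of its own here, so the tissue label could not be checked with them. Photosynthesis genes, chosen after the data were seen, are given instead as a description. They cannot show that roots were absent. LHCB4.2, PSAE-1, PSBW and PSAN, which encode light-harvesting and photosystem subunits, lay between 11.26 and 13.46 on all arrays. Their levels were not equal between genotypes: LHCB4.2 was lower in cct-1 than in gct-2 by a log2 difference of -0.52 (limma adjusted p = 0.00665) and rose in gct-2 against wild type by 0.30 (limma adjusted p = 0.0242). The other 3 differed by -0.24 to -0.09 between cct-1 and gct-2 and were not called. In gct-2 against wild type these 3 differed the other way from LHCB4.2, by -0.15 to -0.01, and were not called. All 4 genes were lower in cct-1 than in wild type, by -0.30 to -0.23, and none was called (limma adjusted p = 0.0642 to 0.0799). The part of these genes in the members' differences was not tested. In RNA of pooled above-ground parts, fewer cells of a type and less RNA per cell cannot be told apart.

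AT3G57020, the middle gene of the first cluster, was above the filter on all 9 arrays. Its level was 9.17, 9.85 and 9.40 in cct-1 seedlings, 9.34, 9.12 and 9.01 in gct-2 seedlings, and 8.05, 7.54 and 7.15 in wild-type seedlings. Every array of either mutant lay above every wild-type array, which held for 16.8% of tested probe sets in cct-1 and 18.6% in gct-2, and the ranges of the 2 mutants overlapped. The means were 9.47 ± 0.35 in cct-1, 9.16 ± 0.17 in gct-2 and 7.58 ± 0.45 in wild type (SD, n = 3 each). The difference from wild type was 1.89 (SE 0.23) in cct-1, a ratio of 3.71, and 1.57 (SE 0.23) in gct-2, a ratio of 2.98. The wild-type arrays served in both differences, so the second does not stand apart from the first. Ranked by difference among the 10395 tested probe sets, it was the number 25 from the top in cct-1 and 41 in gct-2. Between the mutants AT3G57020 was 0.32 higher in cct-1 (SE 0.23), with overlapping ranges, and 0.13 higher without cct-1 replicate 2.

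**Figure D1:**
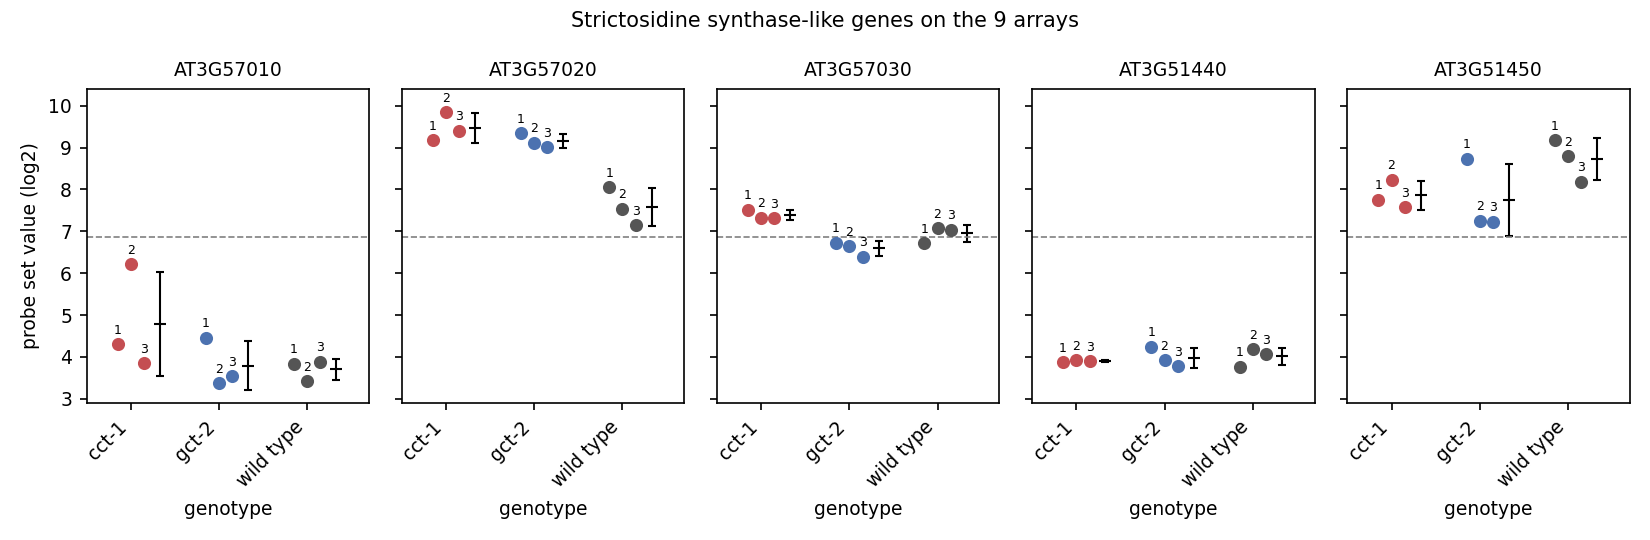
Level of each of the 5 strictosidine synthase-like probe sets (log2, vertical axis) by genotype on all 9 arrays. Coloured points are arrays with their replicate number, black bars are the mean ± SD of 3 arrays, and the dashed line is the median of the array filters. AT3G57020 lies between 9.01 and 9.85 in the mutants and between 7.15 and 8.05 in wild type, whereas AT3G57010 and AT3G51440 stay under the filter throughout.

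AT3G57030, the next gene of the same cluster, was the member called between the mutants. Its level was 7.52, 7.33 and 7.32 in cct-1 seedlings, 6.73, 6.65 and 6.39 in gct-2 seedlings, and 6.72, 7.07 and 7.04 in wild-type seedlings. All cct-1 arrays lay above all wild-type arrays, which held for 16.8% of tested probe sets, and above all gct-2 arrays. In gct-2, replicates 2 and 3 lay under all wild-type arrays and replicate 1 was level with wild-type replicate 1. No gct-2 array exceeded its filter, so the gene was tested only through cct-1 and wild-type arrays, which limits the p given here. The cct-1 mean was 7.39 ± 0.11, against 6.59 ± 0.18 in gct-2 (SD, n = 3 each). The difference was 0.80 (SE 0.13, 95% interval 0.52 to 1.08), with an adjusted p of 0.0101 in limma over all tested probe sets.

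That difference corresponds to a ratio of 1.74. No gct-2 array exceeded its filter, so the size of the ratio is uncertain, and with the gct-2 values raised to the filter cct-1 was at least 1.46-fold higher, a bound that makes no allowance for spread. The gene passed the filter on 5 arrays, 3 of cct-1 and 2 of wild type, and so was tested through the genotypes in which it was higher. It was 1 of 3 tested members called in that comparison, in which 6.39% of all tested probe sets were called. Not overlapping ranges, with cct-1 higher, occurred in 14.2% of tested probe sets. Its adjusted p in limma ran from 0.00543 to 0.0425 over the alternative fits in which it was tested. Most of these fits kept a filter of the same kind, so the range is a description and adds no support.

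The mutant means of AT3G57030 lay on opposite sides of the wild-type mean. In cct-1 it was 0.44 higher (SE 0.13), at 7.39 against 6.95 ± 0.20 in wild type. In gct-2 it was 0.35 lower (SE 0.13, 95% interval -0.64 to -0.07), which missed the threshold with an adjusted p of 0.0888 in limma. That last difference passed with array weights (limma adjusted p = 0.0237) and without wild-type replicate 1 (0.0408), the wild-type array on which the gene was lowest and under the filter. Over the 17 alternative fits in which it was tested, its adjusted p in limma ran from 0.0237 to 0.251. AT3G57030 was not tested with the stricter filter or in the fit of gct-2 and wild type alone. It passed the filter on 0 gct-2 and 2 wild-type arrays, so this comparison was tested only because the cct-1 arrays counted towards the filter.

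AT3G57010, the first gene of this cluster, lay under the filter on all 9 arrays and was not tested. It measured 4.31, 6.21 and 3.85 in cct-1 seedlings, 4.46, 3.37 and 3.54 in gct-2 seedlings, and 3.84, 3.42 and 3.89 in wild-type seedlings. The value of cct-1 replicate 2 stood well above the 4.31 of the next array of its genotype, and that array was also the highest of all for AT3G57020. Without a level above the filter no ratio is given for AT3G57010, and the ranges of the genotypes overlapped.

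In the second cluster AT3G51450 was the member above the filter, on all 9 arrays. Its level was 7.76, 8.23 and 7.57 in cct-1 seedlings, 8.73, 7.25 and 7.23 in gct-2 seedlings, and 9.18, 8.79 and 8.19 in wild-type seedlings. The wild-type arrays were high as a group, but cct-1 replicate 2 and gct-2 replicate 1 reached into their range. The gct-2 mean was 7.74 ± 0.86, against 8.72 ± 0.50 in wild type (SD, n = 3 each), a difference of -0.98 (SE 0.41, 95% interval -1.90 to -0.06) that missed the threshold with an adjusted p of 0.135 in limma.

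The difference of AT3G51450 between gct-2 and wild type was called in 2 of 19 alternative fits. Without gct-2 replicate 1, the highest gct-2 array, it was -1.48 (limma adjusted p = 0.0138). With array weights it was -1.24 (limma adjusted p = 0.024). Over all alternative fits the adjusted p ran from 0.0138 to 0.347. In cct-1 the mean was 7.86 ± 0.34, 0.86 lower than in wild type (SE 0.41). Between the mutants AT3G51450 differed by 0.12, with a 95% interval of -0.80 to 1.03 and an adjusted p of 0.89 in limma.

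AT3G51440 was under the filter on all 9 arrays, with values between 3.88 and 3.92 in cct-1, between 3.78 and 4.24 in gct-2 and between 3.77 and 4.18 in wild type. The cct-1 values thus lay within the low bands of gct-2 and wild type, and the gene was not tested. AT1G74010, the 1 of 5 further strictosidine synthase-like loci outside the list that had a probe set of its own, lay lower still under the filter, between 2.74 and 3.43.

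**Figure D2:**
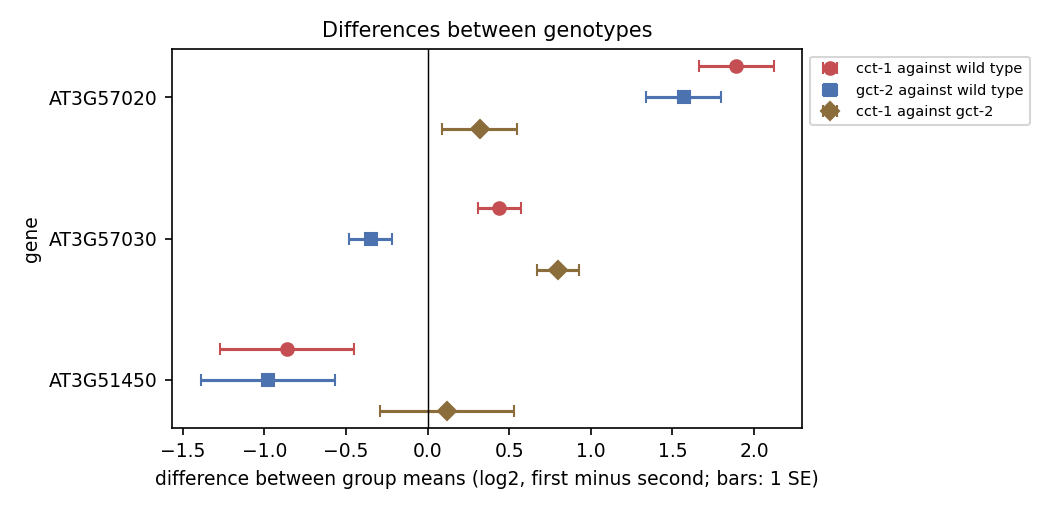
Differences between genotype means (log2, horizontal axis, first genotype minus second) of the 3 members that were tested, with bars of 1 SE. AT3G57020 is higher in both mutants than in wild type (1.89 and 1.57), AT3G57030 lies on opposite sides of 0 (0.44 and -0.35), and AT3G51450 lies below 0 in both (-0.86 and -0.98) with the widest bars.

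The members differed in how closely arrays of 1 genotype agreed. The standard deviation around the genotype means was 0.342 for AT3G57020, 0.165 for AT3G57030 and 0.607 for AT3G51450, against a median of 0.14 over the tested probe sets. AT3G51450 was thus more variable than 99.0% of tested probe sets, AT3G57020 than 94.8% and AT3G57030 than 62.6%. The highest gct-2 value of AT3G51450 was 2.83 times the lowest, and its highest wild-type value 1.98 times the lowest, once the log was undone.

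Within each mutant the highest values of most members fell on the same array. Among the gct-2 arrays, replicate 1 was the highest for 5 of 5 members, while 35.7% of all tested probe sets were highest on it. For AT3G57030 the lead was small, 6.73 against 6.65. The member counts include AT3G57010 and AT3G51440, which stayed under the filter, whereas the shares cover tested probe sets only. In cct-1 replicate 2 was the highest for 4 of 5 members, against 32.7% of tested probe sets, AT3G57030 being the exception. Of those 4, AT3G57020 and AT3G51450 were tested, and for AT3G51440 the lead was only 3.92 against 3.90. Wild-type replicate 1 was highest for 2 members, replicate 2 for 2 and replicate 3 for 1. This pattern was seen in the values first, and its part in the differences between genotypes was not tested beyond leaving out each array.

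Called members are to be read beside the background of each comparison. In cct-1 against wild type 2 of 3 tested members were called, AT3G57020 and AT3G57030, where 12.9% of tested probe sets were called. This comparison chose the family, and nothing is read from that count, which was 1 in 17 of 19 alternative fits, those in which AT3G57030 was not called or not tested. In gct-2 against wild type 1 of 3 was called, AT3G57020, where 15.3% of tested probe sets were called. That gene is the one the family was selected on and the wild-type arrays are the same, so nothing is read from this count either. The median difference over all tested probe sets was 0.0092 in cct-1 and -0.0065 in gct-2 against wild type.

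Genes beside the clusters were examined to place the members' values in their stretch of the chromosome. Gene order was taken from the RefSeq annotation of the TAIR10.1 assembly. Of the 3 annotated genes on each side of the first cluster, AT3G57000 had a probe set of its own. It differed by 0.21 in cct-1 and 0.01 in gct-2 from wild type, with limma adjusted p of 0.358 and 0.961. Beside the second cluster AT3G51470 was tested and differed by 0.01 and 0.72 (limma adjusted p = 0.993 and 0.199), while AT3G51400 lay under the filter.

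With 10 genes on each side, a width chosen after seeing the data, 4 neighbours of the first cluster were tested. Their differences from wild type ran from -0.14 to 0.49 in cct-1 and from -0.22 to 0.21 in gct-2. With limma 0 of 4 were called in either mutant, and 1 had an unadjusted p under 0.05 in each. CBL, which encodes cystathionine beta-lyase of methionine synthesis, differed by 0.03 and -0.06. Around the second cluster 4 neighbours were tested as well, with differences of -0.05 to 0.34 in cct-1 and of 0.00 to 0.72 in gct-2. With limma 0 of 4 were called in either mutant, and 1 had an unadjusted p under 0.05 in cct-1 and 0 in gct-2.

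**Figure D3:**
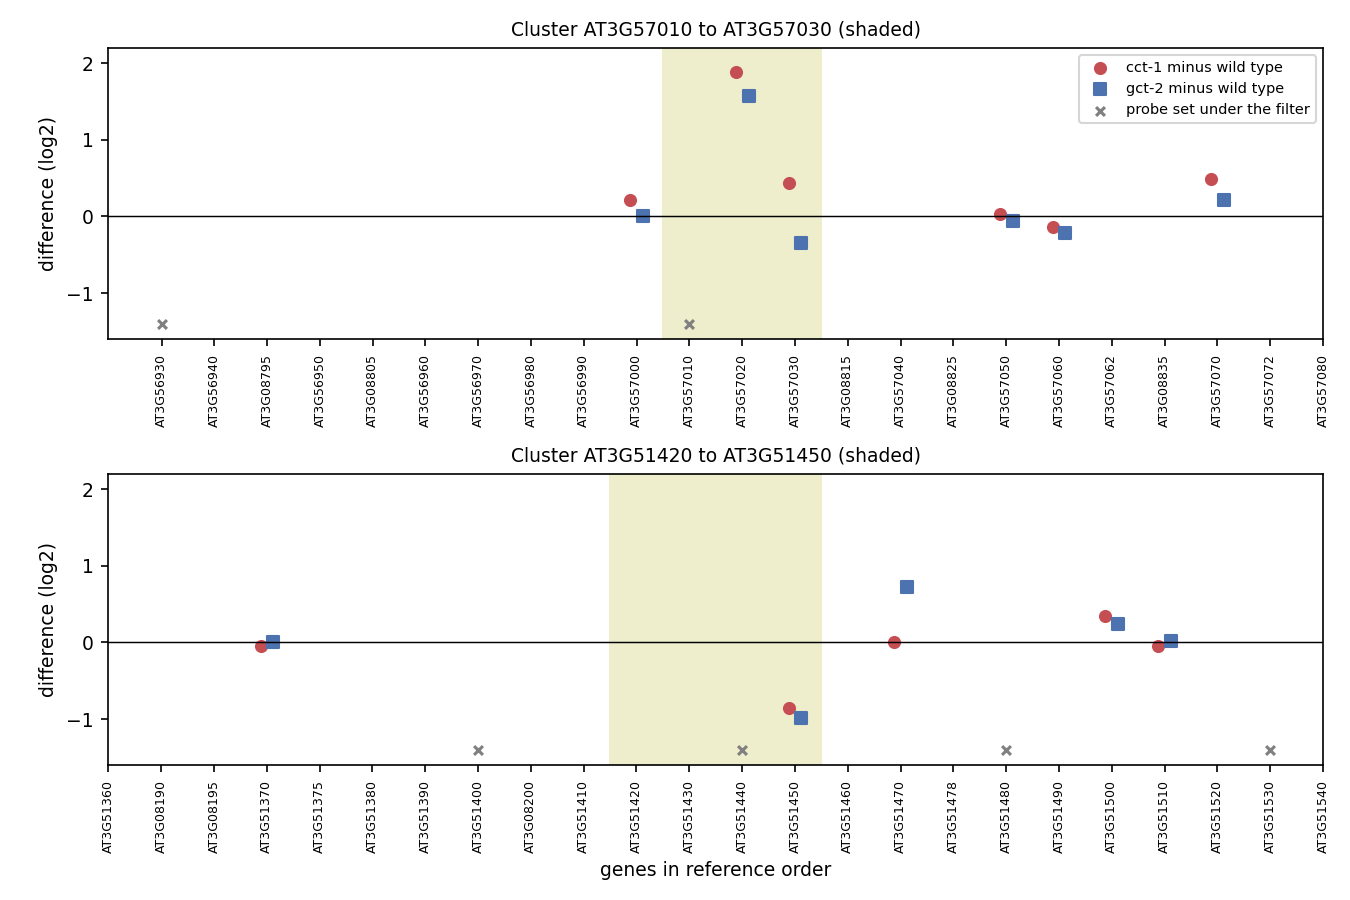
Difference from wild type (log2, vertical axis) of the tested genes along 10 annotated genes on each side of both clusters, in reference order (horizontal axis, not to physical scale). Circles are cct-1, squares are gct-2, crosses mark genes whose probe set was under the filter, and loci without a mark had no probe set of their own. AT3G57020, on which the family was selected, stands at 1.89 and 1.57, and the 4 tested neighbours of its cluster lie between -0.22 and 0.49.

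The genes whose levels most resembled AT3G57020 were sought by Pearson's r over the 9 arrays among 5471 tested probe sets with 1 gene name. The closest were PGRL1B, a gene of cyclic electron flow around photosystem I (r = 0.98), AT1G75280, an isoflavone reductase-like gene (0.977), AT3G44740 (0.975), the methionine sulfoxide reductase gene MSRB5 (0.971) and AT5G61290 (0.969). These r values rest on arrays that share the gap between mutants and wild type, and are a description. That all 5 were higher in both mutants than in wild type follows from how they were found, and no test is given. The sizes differed, with MSRB5 higher by 1.62 in cct-1 and 1.61 in gct-2, and PGRL1B by 0.44 in cct-1 and 0.41 in gct-2.

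For AT3G57030 and AT3G51450 the same search was added after seeing the data. AT3G57030 was followed most closely by AT-HF, which encodes an enzyme of histidine synthesis (r = 0.957), and by AT3G53890 (0.952), AT3G02650 (0.945), the topoisomerase gene TOP3A (0.94) and AT5G11240 (0.935). Their order of means, cct-1 over wild type over gct-2, follows from the search. Between cct-1 and gct-2 they differed by 0.76 in AT5G11240, 0.73 in TOP3A, 0.54 in AT3G02650, 0.27 in AT-HF and 0.13 in AT3G53890, against 0.80 in AT3G57030.

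AT3G51450 was most like AT5G01210 (r = 0.954), AT3G15720 (0.931), AT1G27030 (0.912), AT4G31880 (0.887) and AT2G22900 (0.885). The differences of these 5 genes from wild type were -0.62 to -0.16 in cct-1 and -0.65 to -0.36 in gct-2. All were smaller than those of AT3G51450 itself, -0.86 in cct-1 and -0.98 in gct-2.

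**Figure D4:**
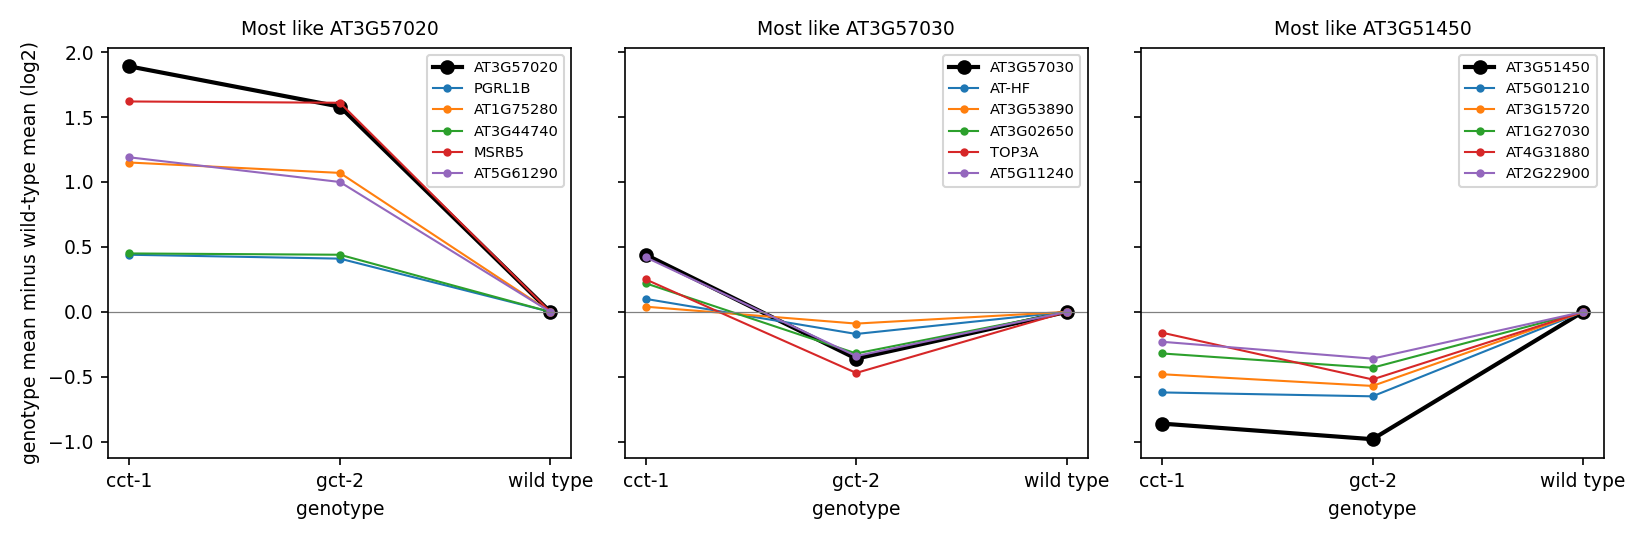
Genotype mean minus wild-type mean (log2, vertical axis) of each tested member (black) and of the 5 genes most correlated with it over 9 arrays (colours), for cct-1, gct-2 and wild type from left to right. Lines join the means of 1 gene. The genes like AT3G57020 lie 0.41 to 1.62 above wild type in the mutants, and those like AT3G57030 lie lower in gct-2 than in cct-1.

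Genes of the settings in which the family is known were thinly covered. Of 14 defence hormone and pathogen response genes 1 had a probe set of its own, the defensin gene PDF1.2, which stayed under the filter at 4.35 to 4.80 on all arrays. Of 13 leaf ageing genes 2 had one. WRKY53, a transcription factor gene of leaf senescence, stayed under the filter at 5.15 to 6.76. YLS5, found in yellowing leaves like YLS2, averaged 9.31 ± 0.06 in cct-1, 9.30 ± 0.09 in gct-2 and 8.72 ± 0.55 in wild type (SD, n = 3 each). Its differences of 0.59 and 0.58 from wild type were not called (SE 0.22 each, limma adjusted p = 0.118 and 0.109), and the SD among wild-type arrays was nearly as large.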

How the data were processed

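Labelled cDNA from 9 RNA pools was hybridised to Affymetrix arrays. The deposited values were probe set levels on a log2 scale, a scale read from the values themselves, and were used as deposited without a pseudocount. The tools named, per the submitters' processing notes, are GCRMA and MAS5. Their roles, and how the authors chose the deposited probe sets, are not given in the sources used here. Probe sets were named through the platform annotation and a RefSeq gene table (TAIR10.1). Of those other than 37 controls 9335 had 1 gene, 351 several and 7140 none. No member's identifier carried the suffix of probe sets shared between genes.

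All 9 arrays entered 1 linear model of genotype means in limma 3.58.1 under R 4.3.3 (lmFit, eBayes). Calls were made at an adjusted p under 0.05, with Benjamini-Hochberg adjustment over 10395 probe sets. The median SE of a difference was 0.111, and the number of arrays limits the precision. The fit was tested on simulated data. No 2 arrays held identical values. Alternatives were other filters, normalizations and variance models, weighting of arrays, a replicate block, fits of the compared genotypes alone, a stricter threshold and leaving out each array. Members under the filter were described from their values. Genes named were the members, the 5 most correlated genes and the called or measured genes of short lists. The members and lists were chosen with earlier results of these data known.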

Additional observations from a re-analysis of the deposited data

Results flagged for a closer look

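AT3G57030 differed between the 2 mutants in the direct comparison, with a measured log2 difference of 0.80 between cct-1 and gct-2 (SE 0.13, limma adjusted p = 0.0101). All 3 gct-2 arrays lay under the filter, and with those values raised to it the difference was 0.55, so its size is uncertain. The gene was tested only through cct-1 and wild-type arrays, in which it was higher, and its adjusted p is limited by that. The gene was higher on 3 of 3 cct-1 arrays than on any gct-2 array, which held for 14.2% of tested probe sets. Groups of 3 arrays are too small for a search for single outlying arrays.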

How the results depend on the processing

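The log2 differences of the tested members kept their sign in every alternative in which they were tested, for both comparisons with wild type. Leaving out 1 array gave 1.68 to 2.12 for AT3G57020 in cct-1 and 1.36 to 1.81 in gct-2. Between the mutants AT3G57030 gave 0.70 to 0.87 with 1 array left out and 0.55 with gct-2 raised to the filter, whereas AT3G51450, not called, gave -0.14 to 0.61. Of the tested members, 2 passed in cct-1 against wild type, the comparison that chose the family, and nothing is read from that count. It was 1 with array weights, no filter, the 60th percentile filter, median centring or quantile normalization, with the robust fit on an intensity trend, with the replicate block, in a fit of the compared genotypes alone and at a threshold of 0.01 (1 to 2 with 1 array left out). The member lost was AT3G57030, which the 60th percentile filter does not test. In gct-2 against wild type 1 member was called, and 3 with array weights (1 to 2 with 1 array left out: 2 without wild-type replicate 1 or gct-2 replicate 1). The 1 called was AT3G57020, on which the family was selected, and nothing is read from it. Between the mutants 1 was called, and 0 with the 60th percentile filter, which does not test AT3G57030, and at a threshold of 0.01, its limma adjusted p being 0.0101 (1 with any array left out). Probe sets called over the whole table numbered 1344 in cct-1 against wild type (502 at 0.01, 590 to 1310 with 1 array left out: 590 without wild-type replicate 2, 792 without cct-1 replicate 2 and 853 without wild-type replicate 1). In gct-2 they numbered 1586 (2640 with no filter, 2682 with array weights, 623 at 0.01, 805 to 1646 with 1 array left out: 902 and 1044 when gct-2 replicates 2 and 3 were dropped, 805 for wild-type replicate 2). Between the mutants they numbered 664 (1023 with array weights, 392 for the compared genotypes alone, 123 at 0.01, 151 to 647 with 1 array left out: 151 and 184 without gct-2 replicates 3 and 2, 219, 391 and 400 without cct-1 replicates 2, 3 and 1, and 391 without wild-type replicate 2). With the replicate block 358 were called between the mutants. Same-numbered arrays deviated together with r between -0.268 and 0.0881 over 9 pairs, so the numbers were not taken as pairs, and 1 of 9 arrays correlated best with its own number. The cause of these changes was not tested. Levels under the filter limit what can be said of AT3G57010, AT3G51440 and AT3G57030 in gct-2.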
